A study of Mus musculus with 48 samples.

Results

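Epidermis of mice labelled ColXIV KO was compared with epidermis of mice labelled ColXIV WT at Zeitgeber time (ZT) 8, that is 8 h after the start of the light phase by the usual convention. The comparison uses the 8 libraries whose titles carry this time, 4 labelled KO and 4 labelled WT, out of 48 libraries in the series. All animals were 47 weeks old and were killed at 1 of 6 times of the day, ZT0, ZT4, ZT8, ZT12, ZT16 or ZT20. Epidermal cell suspensions were made from the skin and frozen in Trizol, and stranded poly(A) libraries were sequenced in bulk. The only genetic difference that the labels give is ColXIV KO against ColXIV WT. The labels do not name the allele, the strain background or the sex of the animals. The titles call the 4 libraries of a group biological replicates, and no label says whether animals were pooled.

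Collagen XIV, encoded by Col14a1, belongs to the fibril-associated collagens with interrupted triple helices (FACIT). These proteins sit on the surface of collagen fibrils in dense connective tissue such as dermis and are made mainly by fibroblasts. The epidermis above the dermis is built by keratinocytes, which divide in the basal layer and differentiate as they move outwards. Its cells carry a circadian clock in which BMAL1 and CLOCK drive the genes of their own repressors. YAP, the effector of the Hippo pathway, is a co-activator that the kinases MST1 and MST2 restrain through LATS1 and LATS2. The series title names BMAL1, YAP, enhancers and inflammation in aged epidermis.

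The ZT8 libraries held 38.7 to 42.8 M counts each. Keratinocyte RNA dominated, since Krt10, a keratin of suprabasal cells, stood at 13000 to 17200 CPM (counts per 1e6 counts of the library) and Krt5, a keratin of basal cells, at 9390 to 12600 CPM. Col1a1, a chain of dermal collagen I, stood at 18.5 and 17.7 CPM in KO replicate 2 and WT replicate 3. The other 6 libraries held 0.917 to 3.07 CPM. These 2 libraries also had the highest mean log2 CPM over 10 fibroblast and dermis markers. They are called the libraries with most dermal RNA below. The summed CPM of the markers did not follow this, at 385 in KO replicate 2 and 329 in WT replicate 3, the lowest of all 8. WT replicate 1 was highest in sum, at 602 CPM. The sum mostly follows Postn, which had 118586 reads over the 8 libraries, against 18564 for Sparc and 1841 for Col1a1. Postn is also a member of the hair follicle stem and outer root sheath list. Xist marked 2 libraries of each label and Y-linked genes the other 2 of each label, so sex-linked type was balanced at ZT8. In bulk RNA, fewer cells of a type and less RNA per cell cannot be told apart.

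Col14a1 went against the labels. The libraries labelled KO held 51.2, 60.6, 45.3 and 56.9 CPM of Col14a1 in replicates 1 to 4, and those labelled WT held 1.59, 0.261, 0.51 and 1.60 CPM. Every library labelled KO was above every library labelled WT. The log2 fold change, KO label over WT label, was 5.73 ± 0.47 (SE, n = 4 a side; 95% interval 4.77 to 6.68; adjusted p = 2.71e-10 in edgeR), or 53-fold. Within the libraries with Xist the difference in mean log2 CPM was 4.87, and within those with Y-linked genes it was 7.14. The labels do not say which exons the allele lacks, and the deposited values are whole-gene counts. The groups are therefore named by their label only, and each direction below is that of the libraries labelled KO against the libraries labelled WT.

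Few genes separated the labels at ZT8. Of 17068 genes tested, 13 were called, with an adjusted p under 0.05 in edgeR's quasi-likelihood test, which is 0.0762% of them. Of these, 8 genes (0.0469%) were higher in the libraries labelled KO and 5 (0.0293%) were lower. Before adjustment, p was under 0.05 for 628 genes (3.68%), 341 higher and 287 lower. The 4 values of each label did not overlap for 625 genes (3.66%), with the KO label above in 296 and below in 329. Of the 13 called genes, 10 lay on chromosome 15, the chromosome of Col14a1, 1 lay on chromosome 16 and 2 were gene IDs without a name or position. Without KO replicate 2 and WT replicate 3, the libraries with most dermal RNA, the test called 4 genes, namely Col14a1, Gm5481 and the 2 unnamed IDs. Leaving out any single ZT8 library also lowered the count, to between 5 and 9 calls. With dermal and anagen list means as covariates 14 genes were called, the same 13 among them. The cause of the lower counts was not tested. The plot of the called genes by library shows that no library of either label stood among those of the other label.

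**Figure D1:**
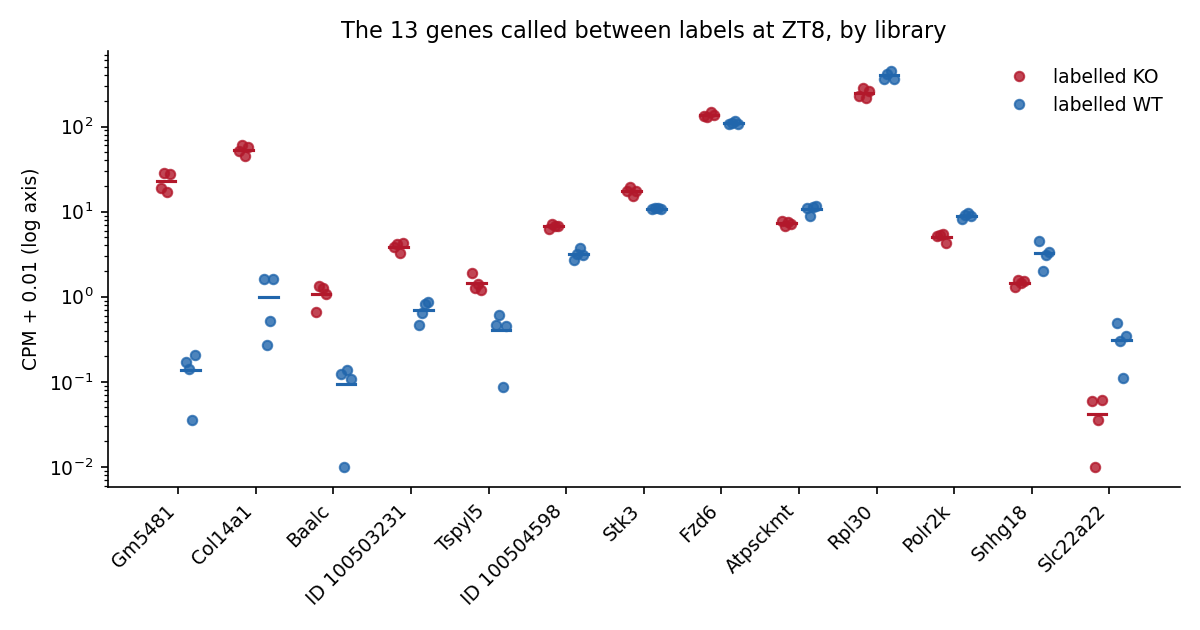
CPM plus 0.01 on a log axis for each of the 13 called genes in the 4 ZT8 libraries labelled KO (red) and the 4 labelled WT (blue), with the mean of each label as a bar. The values of the labels did not overlap in any of the 13 genes, from Gm5481 at 16.8 to 28.4 against at most 0.194 CPM to Fzd6 at 130 to 147 against 107 to 115 CPM.

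Among the signalling genes, Stk3 encodes the Hippo kinase MST2. Its level was 17.6, 19.5, 15.4 and 17.3 CPM under the KO label and 10.8, 11.1, 10.9 and 10.7 CPM under the WT label. The WT values lay close together, and the lowest KO library was well above them. Stk3 rose by a log2 fold change of 0.68 ± 0.12 (95% interval 0.43 to 0.93, 1.61-fold, adjusted p = 0.00634). Without KO replicate 2 its adjusted p was 0.057, and in the other 7 repeats that left out a ZT8 library it stayed called.

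Fzd6 encodes a Frizzled receptor of Wnt and planar polarity signalling, which in mouse skin orients the hair follicles. It stood at 134, 130, 147 and 137 CPM under the KO label and at 107, 110, 115 and 108 CPM under the WT label. The groups did not overlap, with 115 CPM in the highest WT library and 130 CPM in the lowest KO library. Its log2 fold change of 0.31 ± 0.07 (1.24-fold, adjusted p = 0.0357) was the smallest among the called genes. It lost its call when any of the 8 libraries was left out (adjusted p up to 0.26).

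Polr2k encodes a small subunit shared by the nuclear RNA polymerases. Its level was 5.19, 5.29, 5.38 and 4.30 CPM under the KO label and 8.28, 9.20, 9.57 and 8.77 CPM under the WT label. All 4 KO values lay below all 4 WT values, with KO replicate 4 lowest. Polr2k fell by 0.83 on the log2 scale (SE 0.15), that is, it was 1.78-fold higher under the WT label (adjusted p = 0.00634). Its call was lost without KO replicate 4 (adjusted p = 0.0716) and kept in the other 7 such repeats.

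Rpl30 encodes a protein of the large ribosomal subunit, and Gm5481 is annotated by RefSeq as a transcribed pseudogene on chromosome 16. The Gm5481 transcript is a near copy of the Rpl30 coding sequence, and the deposited counts do not tell how reads of the pair were assigned. In the GENCODE M21 transcripts (GRCm38), 345 bases aligned without a gap and 15 of them differed (95.7% identity).

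Rpl30 stood at 231, 284, 219 and 264 CPM under the KO label and at 363, 414, 455 and 362 CPM under the WT label. Every KO library was below every WT library. Rpl30 fell by 0.68 on the log2 scale (SE 0.14; 1.60-fold higher under the WT label; adjusted p = 0.0272). Gm5481 moved the other way, with 18.8, 28.4, 16.8 and 27.7 CPM under the KO label and 0.161, 0.131, 0.0255 and 0.194 CPM under the WT label. That is 661 to 1144 counts a library against 1 to 8 counts. Its log2 fold change was 7.44 ± 1.19 (95% interval 5.02 to 9.86, 173-fold, adjusted p = 0.00136).

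The longest stretch without a difference between the aligned Rpl30 and Gm5481 sequences was 69 bases. Whether reads of one gene were counted for the other was not tested, and the counts of both are uncertain in this respect. Added together, the pair gave 250, 312, 236 and 292 CPM under the KO label and 363, 414, 455 and 362 CPM under the WT label, and these sums did not overlap. The Rpl30 call was lost without KO replicate 1, 3 or 4 or without WT replicate 2 or 3 (adjusted p up to 0.185).

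Atpsckmt encodes a methyltransferase of the c subunit of mitochondrial ATP synthase. It stood at 7.85, 6.81, 7.47 and 7.11 CPM under the KO label and at 11.1, 8.92, 11.2 and 11.5 CPM under the WT label. WT replicate 2 was low for its label but remained above all KO libraries. Atpsckmt fell by 0.54 on the log2 scale (SE 0.10, 1.46-fold higher under the WT label, adjusted p = 0.0149). The call was kept only without KO replicate 1 or WT replicate 2, and the adjusted p reached 0.102 in the other 6 such repeats.

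Snhg18 is a long non-coding RNA that hosts a small nucleolar RNA. Its level was 1.29, 1.56, 1.43 and 1.51 CPM under the KO label and 4.51, 2.01, 3.06 and 3.38 CPM under the WT label. The KO values were close together and the WT values spread over more than the width of the gap between the groups. Snhg18 fell by 1.16 on the log2 scale (SE 0.25, 2.24-fold higher under the WT label, adjusted p = 0.0357). Among repeats that left out a library it was called only without WT replicate 2 (adjusted p up to 0.509 in the other 7).

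The other 3 named calls averaged under 1 CPM over the 8 libraries and are given because so few genes were called, a choice made after their values were seen. Tspyl5, of the nucleosome assembly protein family, stood at 1.89, 1.24, 1.40 and 1.18 CPM under the KO label and at 0.46, 0.601, 0.0766 and 0.437 CPM under the WT label. It rose by a log2 fold change of 1.85 ± 0.38 (3.60-fold, adjusted p = 0.0356), and leaving out any library but WT replicate 2 ended the call (adjusted p up to 0.226). The groups were apart by about the spread within the KO label.

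Baalc, named for its expression in brain and acute leukaemia, stood at 0.646, 1.32, 1.25 and 1.07 CPM under the KO label and at 0.115, 0, 0.128 and 0.0971 CPM under the WT label. That is 26 to 53 counts a library against 0 to 5. It rose by 3.59 ± 0.75 on the log2 scale (12.1-fold, adjusted p = 0.0357) and stayed called only without KO replicate 1 (adjusted p up to 0.23 in the other 7 repeats). All KO libraries were above all WT libraries.

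Slc22a22, an organic anion transporter of the SLC22 family, was near the limit of detection. It had 2, 0, 1 and 2 counts under the KO label and 21, 11, 4 and 14 counts under the WT label. The highest KO count was below the lowest WT count, from WT replicate 3. Slc22a22 fell by 3.16 on the log2 scale (SE 0.67, adjusted p = 0.0357), and it was called in only 1 of the 8 repeats, that without WT replicate 3 (adjusted p up to 0.309).

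The 2 unnamed calls were gene IDs 100503231 and 100504598. ID 100503231 stood at 3.85, 4.17, 3.24 and 4.27 CPM under the KO label and at 0.46, 0.628, 0.817 and 0.85 CPM under the WT label (log2 fold change 2.49 ± 0.29, adjusted p = 9.34e-07). ID 100504598 stood at 6.24, 7.10, 6.73 and 6.81 CPM against 2.67, 3.14, 3.75 and 3.08 CPM (1.09 ± 0.15, adjusted p = 2.46e-05). In both, the lowest KO library was above the highest WT library by more than the range within the WT label. With Col14a1, these IDs were called under every alternative in which they were tested.

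The called genes clustered on chromosome 15. Taken from 30 to 60 Mb (GRCm38), a window chosen with earlier results of these data known, the stretch around Col14a1 (chr15:55307644-55520803) held 100 tested genes. Of these, 10 were called, 5 higher and 5 lower, which is 10% against 0.0762% over all genes. The labels did not overlap for 24 of the 100 genes, against 4.86% in the 556 genes of the rest of the chromosome and 3.48% in the 15421 genes on other chromosomes. No gene in the rest of chromosome 15 was called, while 31 had an unadjusted p under 0.05 (5.58%).

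Within the stretch, 8 of the called genes lay on the centromeric side of Col14a1. The stretch itself extends further on that side than on the other, so more of its tested genes lie there. Calls were 5 of 23 tested genes between 25 and 20 Mb before Col14a1 and 3 of 33 between 20 and 10 Mb before it. From its start to 10 Mb after it, a range that runs past the stretch, they were 2 of 39, Col14a1 included. Measured from the start of Col14a1, with negative distances towards the centromere, Atpsckmt started at -23.71 Mb, Snhg18 at -23.07 Mb, Tspyl5 at -21.62 Mb, Rpl30 at -20.87 Mb, Stk3 at -20.43 Mb and Polr2k at -19.13 Mb. Baalc and Fzd6, neighbours on the chromosome, started at -16.37 and -16.3 Mb. Slc22a22 alone started after Col14a1, at 1.94 Mb. Between 25 and 20 Mb before Col14a1, the labels did not overlap in 11 of 23 genes (47.8%), and between 30 and 25 Mb before it in 0 of 10. In the 15 genes of the last 10 Mb before Col14a1 none was called, and 2 did not overlap (13.3%, against 3.66% over all genes). The share was 21.2% between 20 and 10 Mb before Col14a1. From the start of Col14a1 to 10 Mb after it the share was 10.3%, Col14a1 included. Between 10 and 20 Mb after it, beyond the stretch, it was 13.5%.

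**Figure D2:**
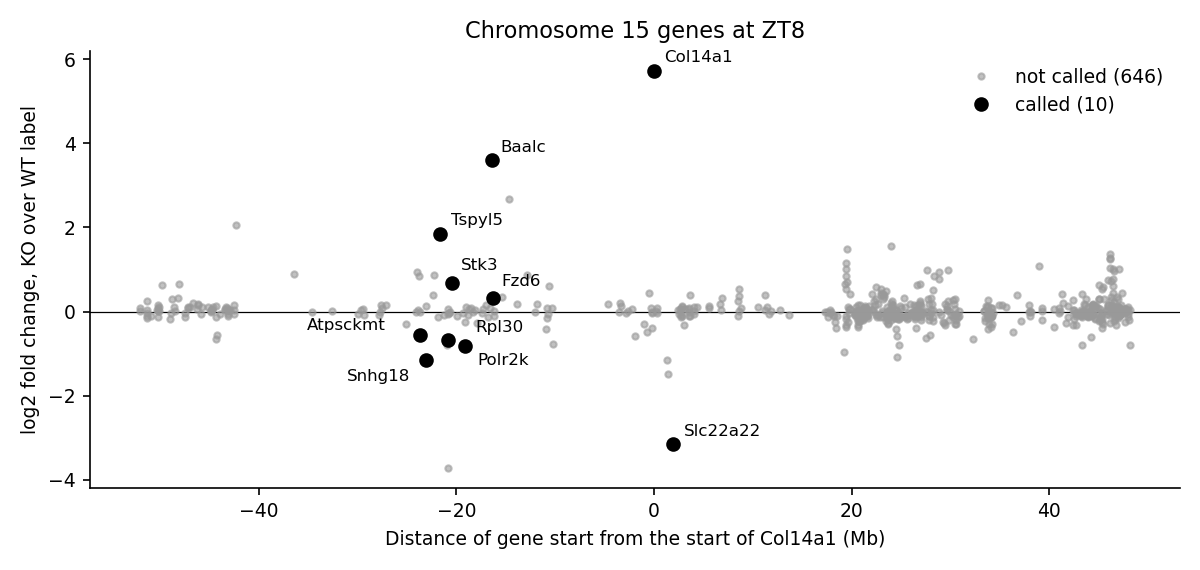
Log2 fold change at ZT8, KO label over WT label, of the 656 tested genes on chromosome 15 against the distance of the gene start from the start of Col14a1 in Mb. The 10 called genes (black) lie between -23.71 Mb (Atpsckmt) and 1.94 Mb (Slc22a22) and on both sides of no change, while grey points were not called.

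The rule for naming genes filled up to 20 with the uncalled, named genes of smallest p among those with a mean of at least 1 CPM, which gave 13 genes with adjusted p from 0.0511 to 0.637. Of these, 9 lay on chromosome 15, and 11 had values that did not overlap, against 3.66% over all genes. This adds no evidence, since the genes were taken for their small p between these same libraries. Mtss1, an actin and membrane scaffold, was nearest to the threshold, at 59.9, 53.4, 57.7 and 55.6 CPM under the KO label and 42.9, 38.8, 43.2 and 46.5 CPM under the WT label (log2 fold change 0.40 ± 0.09, adjusted p = 0.0511). All KO values exceeded all WT values. Sdc2, the heparan sulphate proteoglycan syndecan-2, had a log2 fold change of 0.39 (adjusted p = 0.0652), and Lrp12, a receptor of the LDL receptor family, 0.34 (adjusted p = 0.108).

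On the negative side, Matn2, an extracellular matrix protein of the matrilin family, stood at 12.3, 12.2, 13.1 and 12.6 CPM under the KO label and at 22.0, 19.5, 20.3 and 24.7 CPM under the WT label (-0.79 ± 0.19, adjusted p = 0.123). The KO values were close together and lay clear of the WT values. Laptm4b, a lysosomal membrane protein, stood at 51.1, 43.7, 34.4 and 33.4 CPM against 73.8, 69.8, 62.4 and 62.5 CPM (-0.72 ± 0.17, adjusted p = 0.155). Mal2, a membrane protein of transcytosis and the nearest of these to Col14a1 at -0.74 Mb, had a log2 fold change of -0.48 (adjusted p = 0.586). When the fit held terms for sex-linked expression, 3 of these genes passed in edgeR, namely Mtss1 (adjusted p = 0.0166), Matn2 (adjusted p = 0.00492) and Nudcd1 (adjusted p = 0.0222).

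The remaining uncalled genes on chromosome 15 were Them6 with a log2 fold change of 1.16, Ptp4a3, a protein tyrosine phosphatase, with -0.40, and Nudcd1 with -0.41. Off chromosome 15 the rule took Cdca2, Ulbp1, Zfp655 and Tmem238. Cdca2 encodes Repo-Man, which brings protein phosphatase 1 to chromatin in mitosis. It stood at 5.52, 6.51, 5.84 and 5.94 CPM under the KO label and at 4.23, 4.39, 4.54 and 4.40 CPM under the WT label (0.44 ± 0.11, adjusted p = 0.155). Its groups did not overlap. Ulbp1, a ligand of the NKG2D receptor of lymphocytes, had 0.49 (adjusted p = 0.418) with overlapping groups.

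The same contrast at the other 5 times was set beside ZT8. All 13 called genes had the same sign at all 6 times. Col14a1 was called at each of them, with log2 fold changes of 5.12, 6.10, 5.73, 6.16, 5.17 and 5.84 from ZT0 to ZT20. Of the 13 genes, 9 were also called at ZT0, 3 at ZT4, 4 at ZT12, 9 at ZT16 and 9 at ZT20. Atpsckmt and Rpl30 were called at ZT8 only, yet their log2 fold changes at the other times, -0.29 to -0.43 and -0.36 to -0.63, were not far from those at ZT8. Fzd6 ranged from 0.01 at ZT12 to 0.37 at ZT16.

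Gm5481 varied most with time, since its log2 fold change was 7.31 to 7.77 at 4 times but 1.83 at ZT4 and 2.53 at ZT16. At those times 3 libraries labelled WT, namely ZT4 replicates 3 and 4 and ZT16 replicate 2, held 9.64, 14.1 and 13.3 CPM. The other 21 libraries labelled WT held at most 0.216 CPM, and the 24 labelled KO held 9.78 to 28.4 CPM. The same ZT4 replicates had 2.71 and 2.49 CPM of ID 100503231, above the other libraries labelled WT. Col14a1 in these 3 libraries was 2.47, 0.719 and 1.96 CPM, within the range of the WT label. Tspyl5 in them was 1.69, 0.839 and 1.09 CPM, against at most 0.601 CPM in the others labelled WT. Baalc was 0.306, 0.767 and 0.0746 CPM, and Stk3 was 13.6, 16.4 and 11.9 CPM. Polr2k was 7.67, 6.71 and 10.8 CPM. The medians of the WT label were 0.0965 CPM for Baalc, 11.2 for Stk3 and 8.94 for Polr2k. What sets these libraries apart was not tested.

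**Figure D3:**
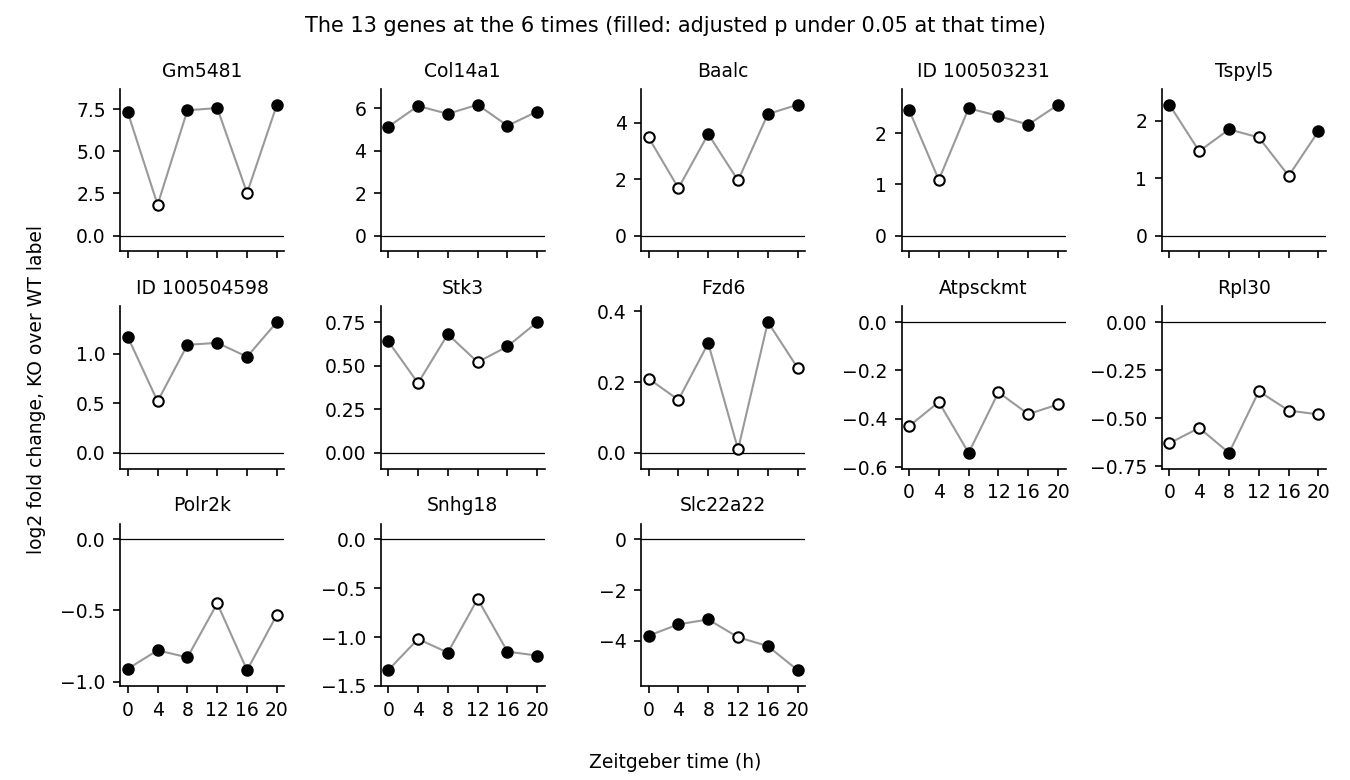
Log2 fold change, KO label over WT label, of each of the 13 genes called at ZT8, at the 6 times; each panel has its own vertical scale and filled points had an adjusted p under 0.05 at that time. No point lies on the other side of 0, and Gm5481 dips at ZT4 and ZT16.

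Whether the difference at ZT8 departed from that at the other times was tested directly, as the ZT8 difference minus the mean difference at the other 5 times. No gene passed (0%) in edgeR, DESeq2 or limma-voom, while 637 had an unadjusted p under 0.05 in edgeR. Among genes with an unadjusted p under 0.05 at ZT8, the sign was the same at all 6 times for 25 of 30 (83.3%) in the 30 to 60 Mb stretch, for 6 of 31 (19.4%) in the rest of chromosome 15 and for 26 of 527 (4.93%) on other chromosomes. Over all tested genes these shares were 40%, 3.78% and 3.29%. Sex-linked type was not balanced at the other times, most clearly at ZT20, where 1 of 4 libraries labelled KO and 4 of 4 labelled WT had Xist.

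The 5 genes of smallest p in that test did not pass. Cdca2 led, with a log2 fold change of 0.44 at ZT8 and of -0.17 to -0.04 at the other times (difference 0.53 ± 0.12, adjusted p = 0.723 in edgeR). Zfp655, a zinc finger protein, had a difference of 0.25 ± 0.06, and Arl5b, a small GTPase of the ARF-like family, 0.40 ± 0.11. Ccdc74a (1.56 ± 0.41) and Zfp473 (0.84 ± 0.22) were below 1 CPM. Adjusted p was 0.997 for these 4.

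Pathway and cell type lists were then read gene by gene. Of their 513 measured members, 2 were called, Col14a1 and Stk3, and DESeq2 and limma-voom called the same pair. The share called over all genes was 0.0762%. This comparison adds no independent evidence, since Col14a1 is the gene that the labels name. The lists were also chosen with earlier results of these data known. Stk3 was lost without KO replicate 2 and without the pair of libraries with most dermal RNA (adjusted p = 0.203). Over all tested genes 49.6% had a positive log2 fold change and the median was 0. Positive shares also followed level, from 58.1% in genes under 1 CPM to 43.2% in genes of 100 CPM or more.

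In the Hippo pathway list of 17 measured genes, Stk3 was called and 10 log2 fold changes were positive (median 0.03). Mob1b, a co-activator of the LATS kinases chosen after its values were seen, stood at 26.2, 25.4, 29.5 and 26.1 CPM against 22.8, 25.1, 21.8 and 25.2 CPM (0.18 ± 0.07, adjusted p = 1 in edgeR). Yap1 itself stood at 278, 273, 274 and 264 CPM under the KO label and 269, 269, 274 and 270 CPM under the WT label. The groups overlapped, and the log2 fold change was 0.01 ± 0.06 (95% interval -0.10 to 0.13). None of the 22 measured YAP/TAZ target genes was called or had an unadjusted p under 0.05 (14 positive, median 0.04). Among them Ccn1, a secreted matricellular protein, stood at 398, 670, 462 and 638 CPM against 136, 496, 580 and 342 CPM, with WT replicate 1 lowest of all 8 libraries and the groups overlapping.

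None of the 27 measured clock genes was called or had an unadjusted p under 0.05, and the median log2 fold change was 0.03 in activators, 0.01 in repressors and 0.09 in output factors. Arntl, which encodes BMAL1, stood at 25.9, 24.8, 27.2 and 22.1 CPM under the KO label and at 33.8, 25.2, 26.3 and 29.3 CPM under the WT label. The groups overlapped, and the log2 fold change was -0.20 ± 0.12 (95% interval -0.45 to 0.06). Its partner Clock had 0.03 ± 0.07, and the related Npas2 0.18 ± 0.20. Rora, a nuclear receptor gene whose product activates Arntl, had 0.08 ± 0.09.

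Among the 14 repressors the labels did not overlap in 1, against 3.66% over all genes. This was Nr1d2, which encodes REV-ERB beta, at 195, 191, 191 and 204 CPM against 169, 175, 181 and 183 CPM (0.14 ± 0.15). Nr1d1, which encodes REV-ERB alpha, had -0.01 ± 0.23. Per1 stood at 209, 170, 213 and 172 CPM under the KO label and at 76.7, 150, 193 and 215 CPM under the WT label, so that WT replicate 1 was far below the rest. The log2 fold changes were 0.27 for Per1, -0.13 for Per2, 0.00 for Per3, -0.18 for Cry1 and 0.01 for Cry2. The output factors Dbp and Tef had -0.01 each, and Hlf 0.14.

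All 30 immediate early and AP-1 genes had positive log2 fold changes, from 0.01 to 0.75, with a median of 0.30. None was called, none had labels that did not overlap, and 3 had an unadjusted p under 0.05 (Dusp5, Dusp6 and Klf6). Fos, a subunit of AP-1, stood at 3770, 6350, 3870 and 5990 CPM under the KO label and at 2560, 4930, 5400 and 4280 CPM under the WT label. Egr1, a zinc finger factor induced by growth factors and stress, stood at 2380, 2870, 2890 and 2980 CPM against 1540, 2030, 2720 and 2840 CPM. In both genes WT replicate 1 was lowest, as it was in 29 of the 30 genes. Without that library the median was 0.12. The list's median at the other times was 0.02 at ZT0, 0.13 at ZT4, -0.27 at ZT12, 0.13 at ZT16 and 0.32 at ZT20.

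The cell division genes also leaned to 1 side. All 22 genes of G2 and M phase had positive log2 fold changes (0.08 to 0.36, median 0.20), none was called and 1 had an unadjusted p under 0.05. Mki67, the proliferation marker Ki-67, stood at 144, 176, 139 and 176 CPM under the KO label and at 119, 144, 139 and 145 CPM under the WT label. The groups overlapped, and its log2 fold change was 0.22 ± 0.12. Top2a, the topoisomerase that untangles DNA in mitosis, had 0.21 ± 0.11.

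Nusap1, a spindle protein, and Cenpf, a kinetochore protein, were the 2 of the 22 whose labels did not overlap, against 3.66% over all genes, and they were chosen after their values were seen. Nusap1 stood at 12.8, 14.8, 10.9 and 12.4 CPM against 9.04, 10.1, 10.8 and 9.74 CPM (0.36 ± 0.13, adjusted p = 1 in edgeR). WT replicate 1 held the lowest value in 18 of the 22 genes, and KO replicate 2 or 4 the highest in all 22. The median stayed between 0.12 and 0.25 when single libraries were left out. At the other times the list's median was -0.02 at ZT0, -0.06 at ZT4, -0.26 at ZT12, -0.32 at ZT16 and 0.07 at ZT20. Within the libraries with Xist 17 of the 22 differences were positive, and within those with Y-linked genes 22 were. In S phase, 20 of 23 genes were positive with a median of 0.07, and Pcna, the clamp of DNA replication, had 0.06 ± 0.08.

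**Figure D4:**
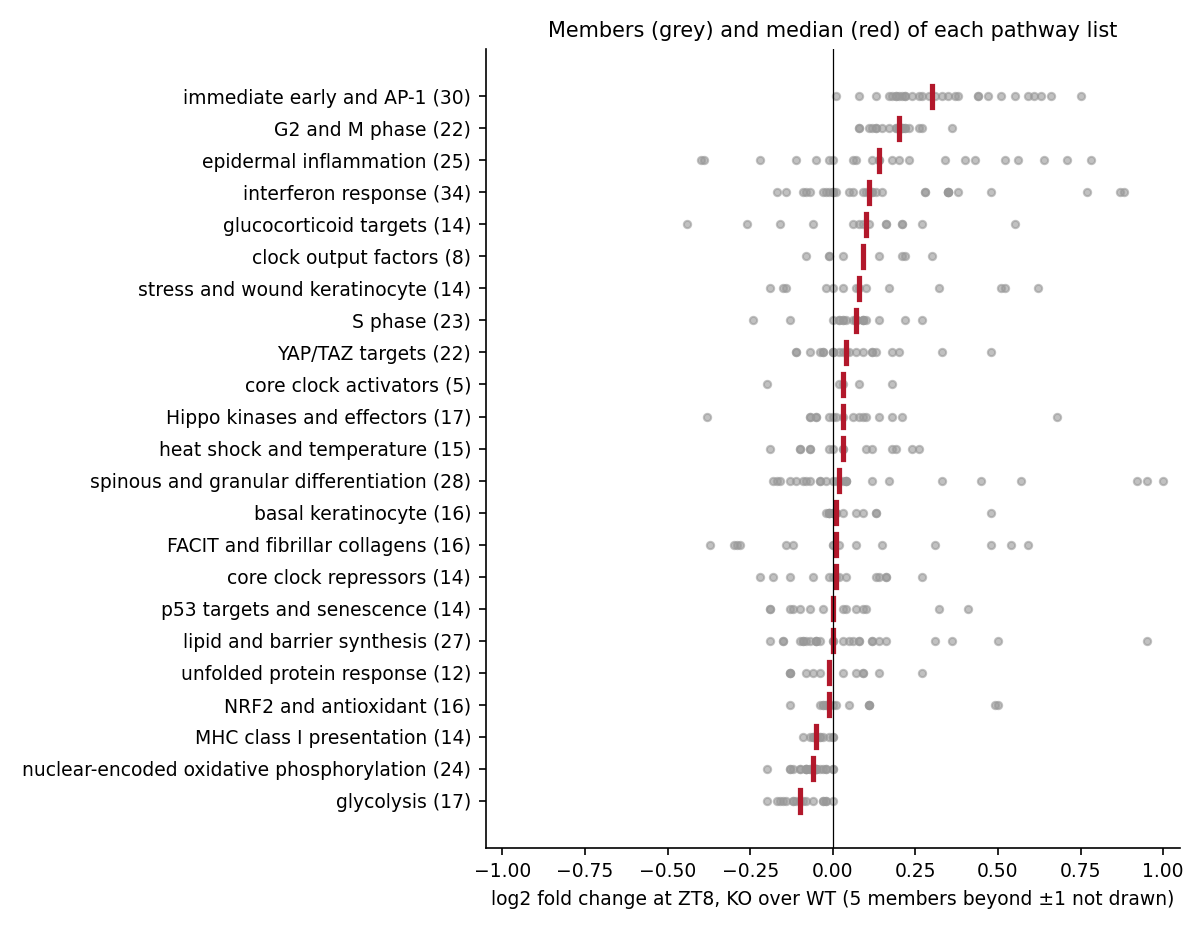
Log2 fold change at ZT8 of each measured member (grey points) and median (red bars) of the 23 pathway lists, with the number of members in brackets; 5 members beyond 1 in either direction are not drawn. The immediate early and the G2 and M phase lists lie to the right of 0 with medians of 0.30 and 0.20, and glycolysis lies to the left with -0.10.

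The inflammation lists showed no called gene. Of 25 epidermal inflammation genes 17 were positive (median 0.14, from 0.07 without WT replicate 1 to 0.27 without WT replicate 2), and 2 had an unadjusted p under 0.05, the cytokine gene Il1b and the alarmin gene S100a8, with opposite signs (0.78 ± 0.36 and -1.61 ± 0.70). Il1b stood at 1.99, 1.86, 0.943 and 0.768 CPM against 0.598, 0.523, 1.35 and 0.777 CPM, so the groups overlapped. Nfkbia, the NF-kappa B inhibitor and the most abundant of the list, stood at 355, 467, 250 and 394 CPM against 170, 328, 378 and 281 CPM, again with WT replicate 1 lowest.

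Of 34 interferon response genes 26 were positive (median 0.11) and none had an unadjusted p under 0.05. Without WT replicate 1 the median was 0.00. Within the libraries with Xist 15 of the 34 differences were positive (median -0.02), and within those with Y-linked genes 31 were (0.23). Of 14 genes of MHC class I presentation 1 was positive, but the values were small (-0.09 to 0.00, median -0.05). H2-K1, a class I heavy chain, stood at 1440, 1510, 1420 and 1520 CPM against 1390, 1600, 1560 and 1590 CPM. From ZT0 to ZT20 the median of the interferon list was 0.12, 0.45, 0.11, 0.28, 0.49 and -0.03, and that of the class I list was 0.02, 0.16, -0.05, 0.16, 0.16 and -0.04.

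None of the 17 glycolysis genes was positive (-0.20 to 0.00, median -0.10) and none had an unadjusted p under 0.05. Pkm, a pyruvate kinase, stood at 310, 424, 385 and 509 CPM under the KO label and at 373, 505, 431 and 412 CPM under the WT label. KO replicate 1 was lowest there and in 14 of the 17 genes, and without it the median was 0.01. Of 24 nuclear-encoded genes of oxidative phosphorylation 1 was positive (-0.20 to 0.00, median -0.06). In all 24 the lowest library was labelled KO, replicate 1 in 12 genes, replicate 3 in 10 and replicate 4 in 2. Atp5b, the ATP synthase beta subunit, stood at 540, 597, 554 and 596 CPM against 581, 595, 622 and 572 CPM, with overlapping groups.

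No gene of epidermal structure was called. The basal list had 9 of 16 positive values with a median of 0.01, and the spinous and granular list 16 of 28 with 0.02. Krt5 had a log2 fold change of 0.03 ± 0.11 and Krt10 of -0.17 ± 0.16. In the stress and wound list the median was 0.08 over 14 genes, and Krt6a, a keratin of wounded epidermis, had 0.07 ± 0.13. The lists of lipid and barrier synthesis (27 genes), NRF2 (16), p53 and senescence (14), heat shock (15) and unfolded protein response (12) had medians between -0.01 and 0.03. Glucocorticoid targets had a median of 0.10 over 14 genes, which was 0.01 without WT replicate 1 and 0.19 without WT replicate 3. None of these genes was called, and the intervals of single genes do not exclude small differences.

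**Figure D5:**
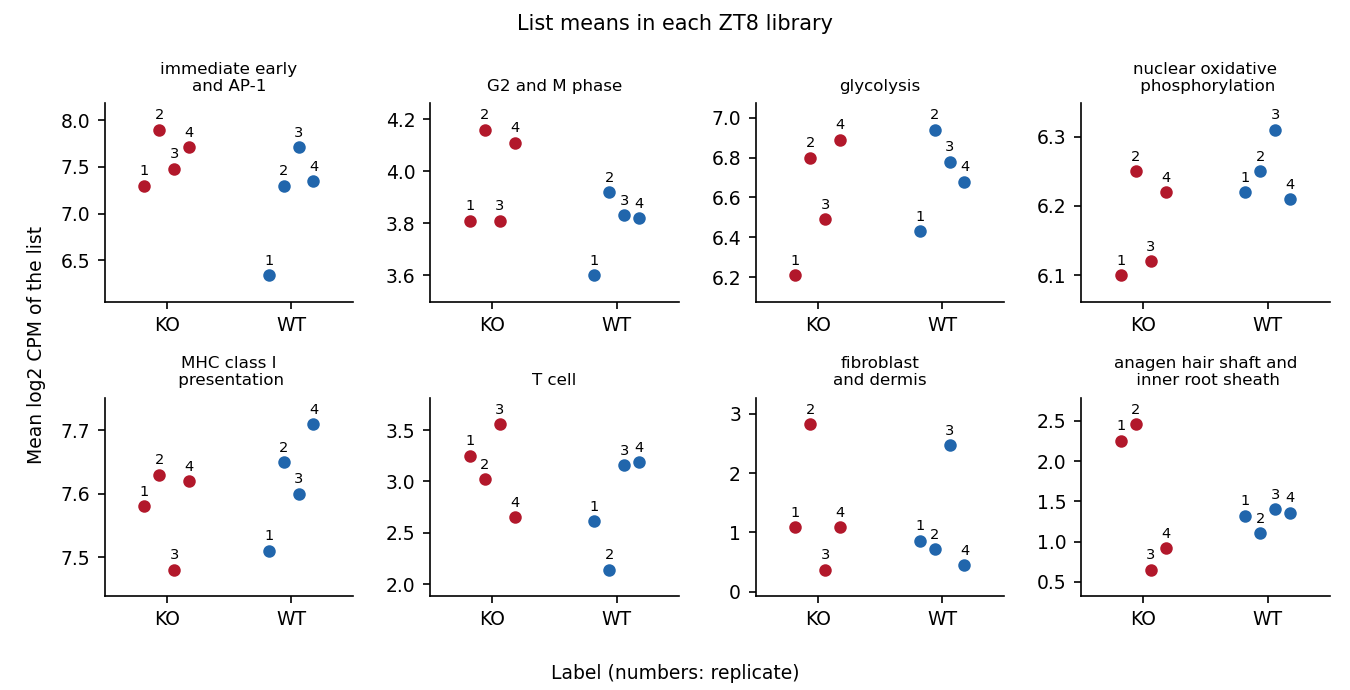
Mean log2 CPM of the members of 8 lists in each ZT8 library labelled KO (red) or WT (blue), with the replicate number above each point; each panel has its own vertical scale. WT replicate 1 is lowest in the immediate early list at 6.34 against 7.30 to 7.90 elsewhere, and KO replicate 2 and WT replicate 3 are highest in the fibroblast and dermis list at 2.83 and 2.47.

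Among other collagens Col16a1, also a FACIT collagen, stood at 256, 251, 265 and 302 CPM under the KO label and 222, 261, 285 and 250 CPM under the WT label (0.07 ± 0.13). Col12a1, another FACIT collagen, had 0.00 ± 0.13. Apart from Col14a1 none of the 16 measured collagen genes was called or had an unadjusted p under 0.05. The mean log2 CPM of the fibroblast list was highest in 1 library of each label. It was 1.09, 2.83, 0.37 and 1.09 under the KO label and 0.86, 0.72, 2.47 and 0.45 under the WT label. The list's summed CPM, in which Postn weighs most, did not follow this order. It was 451, 385, 469 and 373 under the KO label and 602, 476, 329 and 487 under the WT label. Without KO replicate 2 and WT replicate 3 the log2 fold change of Col14a1 was 5.45 ± 0.54.

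Markers of other cells were read in the same way, and none was called. The 8 T cell genes were all positive (0.16 to 0.58, median 0.29, from 0.12 without KO replicate 3 to 0.45 without WT replicate 3). Their summed level was 77.3 to 148 CPM under the KO label and 57.1 to 110 CPM under the WT label, and WT replicate 2 was lowest in 7 of the 8. Langerhans and dendritic cell genes were positive in 7 of 8 cases (median 0.15; summed level 202 to 427 against 145 to 433 CPM) and macrophage genes in 7 of 7 (0.18; 13 to 27 against 8.73 to 30.4 CPM). Single libraries turned both medians, to -0.07 for Langerhans and dendritic cell genes without WT replicate 2 and to -0.07 for macrophage genes without KO replicate 2. Anagen hair shaft and inner root sheath genes were positive in 11 of 11 (0.58), with KO replicates 1 and 2 at 90.7 and 101 CPM in sum and the other 6 libraries at 33.3 to 57.6 CPM. Sebaceous gland genes were positive in 9 of 10 (0.46), with a median of 0.08 without KO replicate 3 and of 1.18 without WT replicate 4. Melanocyte genes were positive in 0 of 7 (-0.19, and -0.02 without WT replicate 1), but their direction differed by sex-linked type, with 0 of 7 positive in the libraries with Xist (-0.72) and 6 of 7 in those with Y-linked genes (0.57). That difference was not tested. Erythrocyte genes were positive in 0 of 4 (-0.22) and hair follicle stem and outer root sheath genes in 1 of 10 (-0.10). Few markers of the other lists passed the low-count filter, with 2 of 6 for endothelial cells, 1 of 6 for neutrophils, 2 of 6 for mast cells, 3 of 6 for skeletal muscle and 1 of 5 for adipocytes, while 5 Schwann cell genes had a median of 0.04. The part of these cells in the list differences above was not tested. With dermal and anagen list means as covariates, edgeR called 14 genes, the same 13 among them.

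Precision depended on level. The median standard error of the log2 fold change was 0.433 for genes under 1 CPM, 0.176 for genes of 1 to 10 CPM, 0.0826 for genes of 10 to 100 CPM and 0.0859 above that. The smallest called log2 fold change with 4 libraries a side was that of Fzd6, at 0.31.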

How the data were processed

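RNA from epidermal cell suspensions was sequenced in 48 libraries, and the 8 of ZT8 were compared by label. The authors deposited raw counts per gene ID. The submitters' processing notes name mm10 (GRCm38), STAR 2.7.10a, featureCounts and Trim Galore. Their settings, strand included, were not given in the sources used here. Of 27179 IDs, 3698 had no read; RefSeq (GRCm38) named 25275 and GENCODE M21 named 18. How reads of overlapping or near-identical genes were assigned was not given either.

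Counts of all 48 libraries (35.6 to 43.7 M each) were scaled by TMM, filtered by filterByExpr over 12 groups and fitted with edgeR 4.0.16 (R 4.3.3; glmQLFit robust, glmQLFTest). The 12 group means shared 1 estimate of each gene's spread, and the contrast was KO minus WT label at ZT8, with Benjamini-Hochberg adjustment over 17068 genes (16082 named) and calls under 0.05. CPM values use the TMM-scaled library size, and list means are of log2 CPM with a prior count of 2. A second contrast set the ZT8 difference against the mean of the other 5 times. Any 2 replicates differed by more than sampling noise (chi-square per degree of freedom 16.9 to 55.8). P-values and standard errors rest on the spread within the 12 groups of all 48 libraries, not of the ZT8 libraries alone. Each standard error is the size of the log2 fold change divided by the square root of its F statistic.

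The naming rule took Col14a1, called genes with a symbol and at least 1 CPM (at most 15 a direction), the uncalled genes of smallest p at that level up to 20, the 5 smallest p of the second contrast, and up to 4 called or the 3 most abundant members of each list. Others were chosen after their values were seen or named because few were called. The former include Dusp5, Dusp6, Klf6, Il1b and S100a8, named for an unadjusted p under 0.05 in edgeR. The 41 lists held no measured gene for the mitochondrially encoded set. Members and lists were chosen with earlier results of these data known. Sequences were aligned with Biopython 1.88. Alternatives were RLE, DESeq2 1.42.0, limma-voom (limma 3.58.1), other filters, ZT8 alone, a replicate block, covariates, adjustment off chromosome 15, and libraries left out. The code was tested on simulated data.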

Additional observations from a re-analysis of the deposited data

Results flagged for a closer look

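Within groups of 4 libraries, 5 of 136 groups of values held a library whose gap to the nearest other was above Dixon's 95% critical value as a share of the group's range. Chance gives about 1 in 20. Atpsckmt in WT replicate 2 was 8.92 CPM against 11.1 to 11.5 CPM in the other 3 libraries labelled WT. Ccdc74a in the same library was 0.131 CPM against 0.291 to 0.306 CPM. In KO replicate 3, Zfp473 was 0.739 CPM against 0.894 to 0.921 CPM, and Arl5b was 37.7 CPM against 31.9 to 32.4 CPM. The mean log2 CPM of the stress and wound keratinocyte list was 3.61 in WT replicate 1 against 4.16 to 4.25 in the other 3 libraries labelled WT.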

How the results depend on the processing

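All of the 13 called genes that an alternative tested, out of 21 alternatives, kept their sign in it. The main count was 13 (8 higher, 5 lower, 10 on chromosome 15). DESeq2 called 20 genes (8 lower, 17 on chromosome 15), and limma-voom called 9 (3 lower). The ZT8 libraries alone called 9 genes (2 lower, 6 on chromosome 15), and 7 of them were among the 13. Atpsckmt, Snhg18, Tspyl5, Rpl30 and Fzd6 were tested there and not called. Terms for sex-linked expression gave 9 lower and 19 in all. Adjustment over genes off chromosome 15 called 3 (3 higher, 0 lower). Leaving out single libraries gave 5 to 9 calls, 4 to 6 higher, 0 to 3 lower and 2 to 6 on chromosome 15, with fewest without KO replicate 4; Col14a1 stayed at 5.42 to 6.05. Without the 2 libraries of most dermal RNA, an alternative added after seeing the data, 4 were called (4 higher, 0 lower, 1 on chromosome 15). Leaving out the 3 libraries labelled WT with Gm5481 at other times gave 12, and ZT8 alone with sex-linked type as a term gave 13; both were also added after seeing the data. The cause of these changes was not tested, beyond fewer libraries or genes in the fit. With the replicate block 12 genes were called. Tspyl5 at ZT8 (adjusted p = 0.0518) and Slc22a22 at ZT8 (adjusted p = 0.202) were not among them, and Laptm4b at ZT8 (adjusted p = 0.0459) was. Deviations of same-numbered libraries correlated at r from -0.365 to 0.344. Over all 16 pairs of a KO and a WT library, r was positive in the 8 of 1 sex-linked type and in 0 of the 8 mixed pairs, so this correlation does not show whether the numbers pair the samples, and the labels give them no shared source. Gm5481 was not called by limma-voom (adjusted p = 0.0686). The median of the fibroblast list ranged from -0.67 without KO replicate 2 to 1.35 without WT replicate 3, and that of the anagen list from 0.12 to 0.89. The number of libraries limits genes under 1 CPM most.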
